A study of Rattus norvegicus with 4 samples.

Results

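Endoplasmic reticulum (ER) chaperones were followed across the trigeminal nerve of a rat model of trigeminal neuralgia (TN). They were 9 genes, Hspa5, Hsp90b1, Dnajb11, Sdf2l1, P4hb, Pdia3, Pdia4, Pdia6 and Calr, chosen by symbol, and all 9 of 9 were found, each as a single row, among the 32623 genes of the table. No threshold on a measured value entered the rule, but the list was drawn up with earlier results of these data known. The tissue came from wild type rats, adult male Sprague–Dawley animals by the study's methods. In the TN group the trigeminal nerve root of one side had been compressed chronically, and root, semilunar ganglion and proximal branches of the diseased side were placed on Visium capture areas TN1, TN2 and TN3, with 1 animal each. The control area (HC) held the same parts of 2 animals. The series description takes these from the healthy side of TN animals, whereas the methods speak of sham surgery, so that HC may be the other side of operated animals. With 1 HC area, the condition and the capture area cannot be told apart, and p-values for TN against HC assume that HC varies like the 3 TN areas.

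Proteins that enter the secretory pathway fold in the ER. Hspa5, known as BiP, is the Hsp70 chaperone of this compartment. It works with Dnajb11, a J-domain co-chaperone that hands over substrates, and with Sdf2l1, which forms a complex with Dnajb11, while Hsp90b1, known as GRP94, is the Hsp90 of the ER. P4hb, Pdia3, Pdia4 and Pdia6 are protein disulfide isomerases, which form and exchange disulfide bonds, and P4hb is also a subunit of collagen prolyl 4-hydroxylase. Calr, calreticulin, is a lectin chaperone and calcium store that brings Pdia3 to glycoproteins. Unfolded protein in the ER switches on a transcriptional program, the unfolded protein response, in which ATF6 and XBP1 act on ER stress response elements (ERSE) near the start of chaperone genes. Neurons of sensory ganglia and myelinating Schwann cells both make large amounts of secreted and membrane protein.

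The sequence in front of several of these genes holds the element through which they are known to be switched on together, and it is shown here for the 4 members that held a form of it, beside Pdia4, whose counts the results below turn on most and which held none in the same window. Promoters of 250 bases before to 50 bases after the start were taken from RefSeq on build GRCr8, and 7 of the 9 members had an entry. Both strands were searched for CCAAT and CCACG with 9 bases between them, called ERSE. They were found in the promoters of Hspa5, Hsp90b1 and Calr, 3 of 7 members, and in 22 of all 33469 promoters, a share of 0.0657%. The shorter form, ATTGG and CCACG with 1 base between them and called ERSE-II, was found in Dnajb11 and in 17 promoters in all, 0.0508%. TGACGTGG, an XBP1 and ATF6 site called UPRE, was in 199 promoters, 0.595%, and in none of the 7 members. Besides Pdia4, P4hb and Sdf2l1 held neither ERSE nor ERSE-II. A match is a description of letters, and its absence says only that they are not in this window. In the lines that follow, each read 5′ to 3′ on the strand of its gene, capitals mark the outer letters of ERSE or ERSE-II, and in Pdia4 they mark CCAAT, or ATTGG on the other strand.
Hspa5, chr3:38452961-38453003, plus strand, 55 to 13 bases before the start: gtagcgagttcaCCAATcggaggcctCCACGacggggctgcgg
Hsp90b1, chr7:23012335-23012481, minus strand, 188 to 42 bases before the start: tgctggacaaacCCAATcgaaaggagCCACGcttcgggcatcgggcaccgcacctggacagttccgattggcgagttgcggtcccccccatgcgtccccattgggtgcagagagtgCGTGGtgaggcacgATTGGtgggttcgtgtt
Calr, chr19:40213123-40213165, plus strand, 244 to 202 bases before the start: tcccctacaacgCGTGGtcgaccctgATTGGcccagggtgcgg
Dnajb11, chr11:91672800-91672822, minus strand, from 22 bases before the start to the start: tcccaggcggcgATTGGcCCACG
Pdia4, chr4:78153192-78153311, minus strand, 120 to 1 bases before the start: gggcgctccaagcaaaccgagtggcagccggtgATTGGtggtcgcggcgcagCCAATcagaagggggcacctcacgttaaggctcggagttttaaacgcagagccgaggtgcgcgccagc

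Hsp90b1 held 2 copies of ERSE, 1 on each strand, Hspa5 held 1 on its own strand, and Calr 1 on the other strand.

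The data were counts of unique molecular identifiers (UMIs), each standing for a captured transcript molecule, on 6773 spots, 2013 of them on the HC area and 1587, 1256 and 1917 on the TN areas in numerical order. A spot is a small patch of tissue that can hold several cells. The areas held between 23546025 and 41335930 UMIs, and the median spot held between 9487 UMIs in TN1 and 30808 in TN2. The same barcode sequences recur on every area by design of the slide, 2337 of 3573 in more than 1, and were separated by the area number. Spots were assigned to a region by the marker list with the highest mean standardised level, where it led by 0.25 or more. Ganglion spots were led by sensory neuron genes and numbered 262, 144, 190 and 686 in TN1, TN2, TN3 and HC. Nerve spots were led by peripheral myelin genes and numbered 321, 49, 381 and 135. Central spots, led by central myelin, astrocyte or central neuron genes, numbered 761, 328, 410 and 419. No member was on a marker list. Spots are not replicates, so UMIs were summed for each region of each area, and levels are counts per 1e6 UMIs after TMM scaling (CPM). Sums over marker lists, and levels beyond these 3 regions or within the ganglion, are given as plain CPM, without TMM scaling. Levels were compared between samples and regions and not between genes. In such sums, fewer cells of a type and less RNA per cell cannot be told apart.

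HC nerve spots held more sensory neuron signal than those of TN. Of the 135 HC nerve spots, 126 had a sensory neuron score of 0 or higher, against 41 of 321 in TN1, 18 of 49 in TN2 and 67 of 381 in TN3. The 12 sensory neuron genes found added up to 10178 plain CPM in HC nerve spots and to between 3539 and 5144 plain CPM in the TN areas, with Pou4f1 at 0 in all 4. Central spots differed as well, since the 5 central neuron genes added up to 313 and 220 plain CPM in TN1 and TN2 and to 2.31 and 1.02 plain CPM in TN3 and HC. Ganglion spots had sensory neuron sums between 13044 and 15222 plain CPM in all 4 areas. The same list chose these spots, so this does not show that their tissue was alike. The satellite glia list, which was not used to choose spots, differed there. It stood at 1557, 1030 and 1283 plain CPM in ganglion spots of TN1, TN2 and TN3 and at 2229 plain CPM in HC. Its part in the levels of the members was not tested.

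In ganglion spots, Pdia4 was about 3 times as abundant in the TN areas as in HC, while the other 8 chaperones had log2 fold changes of 0.23 or less. Pdia4, which carries more thioredoxin domains than the other isomerases here, stood at 30.1, 28.3 and 33.4 CPM in TN1, TN2 and TN3 and at 10.0 CPM in HC. These values rested on 313, 211, 233 and 248 UMIs. All TN areas lay above HC, and the gap to HC was several times the spread among them (30.6 ± 2.55, SD, n = 3). The log2 fold change was 1.61 (SE 0.21, 95% interval 1.09 to 2.12), and the adjusted p was 0.22 by edgeR's quasi-likelihood test over 12225 genes, so Pdia4 did not pass the threshold of 0.05. Over all genes 0.00818% passed it, a single gene, which was lower in TN. None of the 9 members passed it, and Pdia4 alone passed at an unadjusted p under 0.05, as did 1337 of all genes. DESeq2 called Pdia4 here among 165 genes (adjusted p = 1.9e-05), and so did edgeR with no filter on low counts (0.033) and without TN1 (0.012). Over all alternatives its log2 fold change ranged from 1.55 to 1.72 and its adjusted p from 1.9e-05 to 0.51.

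The chaperones that bind unfolded chains had log2 fold changes between -0.07 and 0.19 in the ganglion. Hspa5 stood at 221, 206 and 227 CPM in the TN areas and at 207 CPM in HC, so that the groups overlapped. Hsp90b1 stood at 266, 299 and 330 CPM against 266 CPM, with TN1 at the level of HC. Dnajb11 was at 47.4, 49.0 and 46.5 CPM against 50.1 CPM, all 3 TN areas below HC by a small margin. Its partner Sdf2l1 stood at 22.5, 25.0 and 23.9 CPM against 20.8 CPM, all above HC by a small margin.

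Among the other isomerases, P4hb stood at 186, 266 and 248 CPM in the TN ganglion and at 199 CPM in HC, a wide spread within TN that enclosed HC. Pdia6 stood at 169, 209 and 191 CPM against 162 CPM, above HC in all 3 areas. Pdia3 was at 182, 196 and 166 CPM against 193 CPM. Calr, its lectin partner, was at 477, 526 and 485 CPM against 491 CPM, with HC inside the range of TN. Leaving out Pdia4, the log2 fold changes lay between -0.09 (Pdia3) and 0.23 (P4hb), and all 8 of their 95% intervals held 0. The widest of these reached from -0.31 to 0.78 in P4hb, so that a moderate rise would not have been detectable at this number of areas. The median over the 9 members was 0.17 and that of all genes 0.03, with 7 of 9 above 0.

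The share of ganglion spots with a UMI of Pdia4 followed the sums. It was 61.8%, 77.1% and 64.7% in TN1, TN2 and TN3 and 27.7% in HC (exact binomial 95% interval 24.4% to 31.2%, which covers counting error only). Median depth was 41209.5, 50168 and 36507 UMIs in the TN ganglion spots and 34208 in HC. After thinning each spot to 5000 UMIs, which left out 10 spots of TN3 and 9 of HC, the shares were 13.8%, 14.2%, 15.8% and 5.06%. For Sdf2l1 the thinned shares were 11.2%, 12.03%, 11.3% and 9.94%. For Calr they lay between 90.5% and 92.6% in all 4 areas. The lowest thinned share of Pdia4 was 4.43%, in HC nerve spots, and how much of any share came from RNA that had spread between spots was not tested.

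**Figure D1:**
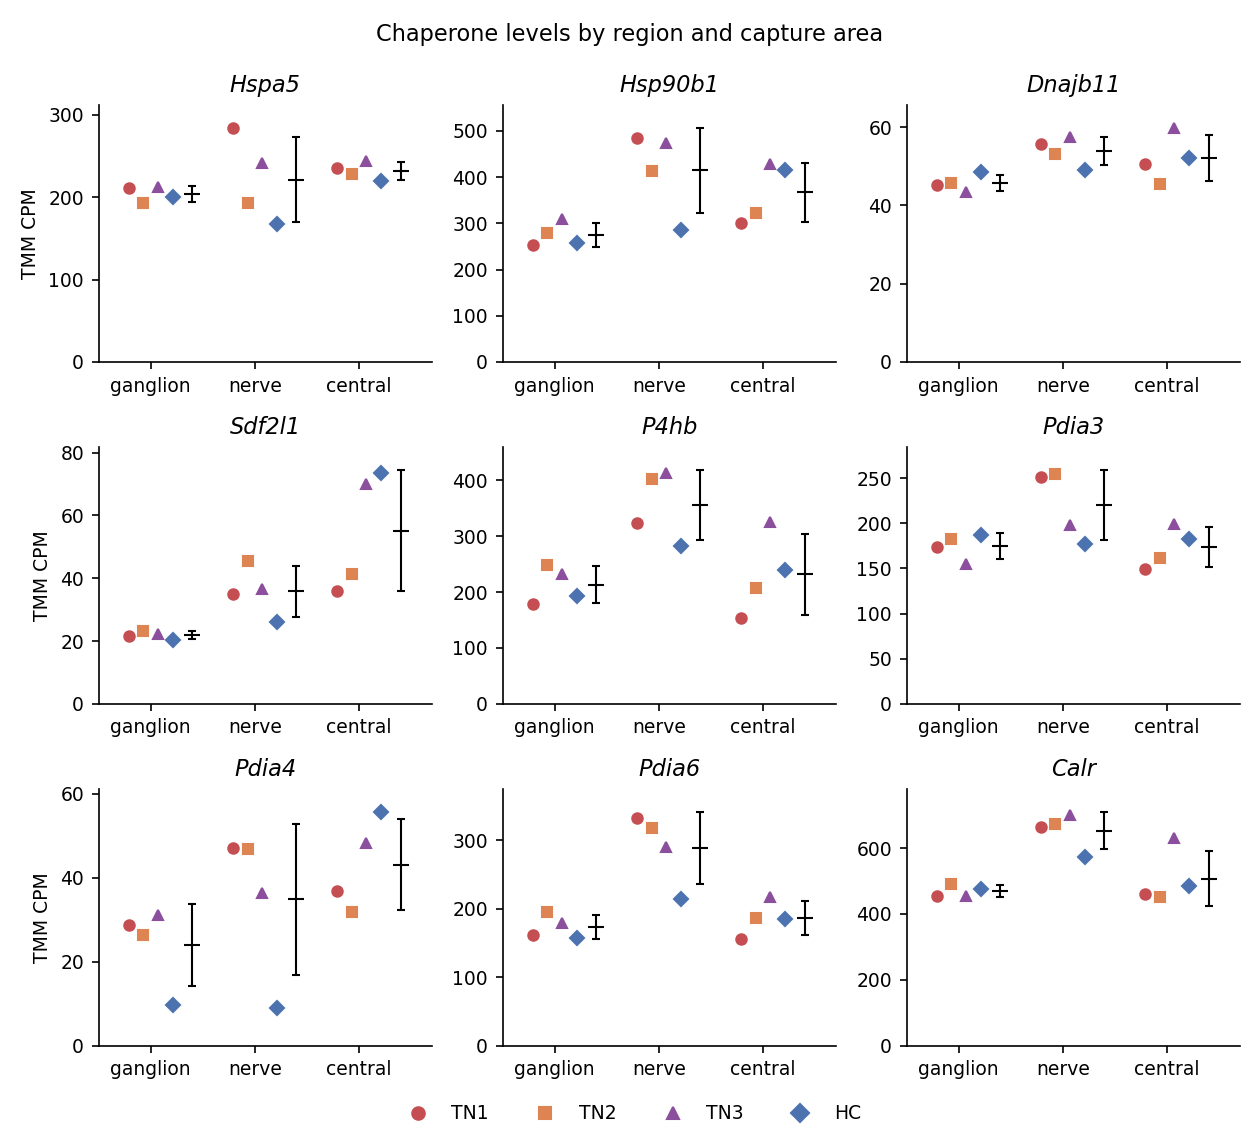
Level of each member in CPM, scaled over the 12 sums of 3 regions and 4 capture areas, with 1 point for each area and the mean and SD over the 4 areas as a bar (n = 4). HC lies below the 3 TN areas for Pdia4 in ganglion (9.72 CPM) and nerve (8.98 CPM) but not in central spots (55.7 CPM), and most other members are higher in nerve than in ganglion spots.

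In nerve spots Pdia4 was the only member that passed the threshold. All 9 chaperones were higher in each TN area than in HC, but all of these gaps rest on the same HC sum. How many of all genes lay above HC in each TN area was not counted. Pdia4 stood at 46.6, 47.1 and 36.4 CPM in TN1, TN2 and TN3 and at 8.83 CPM in HC, from 124, 81, 189 and 19 UMIs. The TN values did not overlap with HC, and their mean was 43.4 ± 6.01 CPM (SD, n = 3). The log2 fold change was 2.28 (SE 0.33, 95% interval 1.48 to 3.08) with an adjusted p of 0.0215 by edgeR. Over all 10314 genes tested 5.23% passed, 1.05% as higher and 4.18% as lower in TN. The count of 1 member of 9 is therefore to be read against about 1 gene of 100 called higher. The call was lost without TN3 (log2 fold change 2.45, adjusted p = 0.13), where no gene passed at all. It was also lost when the comparison was limited to nerve spots with a sensory neuron score of 0 or higher (1.96, adjusted p = 0.15), an alternative added after the data had been seen. Without TN1, Hsp90b1 passed as well (0.69, adjusted p = 0.026).

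Hsp90b1, the ER form of Hsp90, stood at 478, 415 and 474 CPM in TN nerve spots and at 282 CPM in HC, a log2 fold change of 0.69 (95% interval 0.13 to 1.26, adjusted p = 0.14 by edgeR). Pdia6 stood at 328, 319 and 289 CPM against 211 CPM, a log2 fold change of 0.57 with an interval of 0.019 to 1.12 and an adjusted p of 0.20 by edgeR. In both, the TN areas lay close together and HC well below them, yet neither passed.

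The remaining 6 members had intervals that held 0. Hspa5 stood at 280, 194 and 240 CPM in the TN nerve and at 164 CPM in HC, with TN2 nearest to HC. Sdf2l1 was at 34.6, 45.9 and 36.4 CPM against 25.6 CPM. Dnajb11 was at 54.9, 53.5 and 57.2 CPM against 48.3 CPM, the narrowest gap of all 9. The isomerase P4hb stood at 320, 404 and 412 CPM against 277 CPM. Pdia3 was at 248, 256 and 198 CPM against 174 CPM, and Calr at 656, 678 and 700 CPM against 562 CPM. Their log2 fold changes lay between 0.19 in Dnajb11 and 0.60 in Sdf2l1. The median over all 9 members was 0.54 and that over all genes 0.04.

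Other signals moved with this contrast. Of the sensory neuron list, Avil, Scn10a, Tac1, Sncg and P2rx3 fell in TN nerve spots. Of the connective tissue list Mgp and Fn1 rose, 2 of 6, and the list added up to between 5014 and 6218 plain CPM in TN and to 2781 plain CPM in HC. Of the macrophage list 3 of 7 rose, C1qc, Aif1 and Csf1r, with sums of 511 to 951 plain CPM in TN against 203 plain CPM. The 4 plasma cell genes found added up to at most 0.458 plain CPM in any nerve sum, with Jchain and Tnfrsf17 at 0 in all 4 areas. Igkc of that list was not found among the genes of the table, so its level is not known. In ganglion spots the connective tissue list stood at 1145, 2406 and 2332 plain CPM in TN and at 1078 plain CPM in HC, the macrophage list at 306, 489 and 416 plain CPM against 165 plain CPM, and the nerve injury list at 1689, 3157 and 1576 plain CPM against 639 plain CPM. Their part in the levels of the members was not tested.

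In central spots no member passed, and Pdia4 was not higher in TN. Pdia4 stood at 35.6, 31.1 and 47.2 CPM in TN1, TN2 and TN3 and at 50.3 CPM in HC, all 3 TN areas below HC. The log2 fold change was -0.41 (95% interval -1.29 to 0.47, adjusted p = 0.947 by edgeR). Sdf2l1 stood at 34.7, 40.5 and 68.2 CPM against 66.4 CPM, and P4hb at 148, 202 and 318 CPM against 217 CPM. For both, TN3 lay far above TN1. The central spots of TN1 and TN2 were also those with the central neuron signal given above, and its part in these levels was not tested. No gene of 11658 passed in central spots (0% of all genes), where 467 genes had an unadjusted p under 0.05 and DESeq2 called 1 gene. The median over the members was 0.04 and that of all genes 0.15.

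Over all spots together, Pdia4 stood at 34.0, 41.4 and 43.2 CPM in the TN areas and at 16.2 CPM in HC, a log2 fold change of 1.29 (SE 0.26, adjusted p = 0.56 by edgeR). All 9 members had log2 fold changes above 0, with a median of 0.34 against 0.06 for all genes. In Dnajb11, Sdf2l1, P4hb, Pdia3 and Calr, however, TN1 lay below HC, as in P4hb at 192 against 212 CPM. Of 14902 genes 0 passed (0%), with 1271 at an unadjusted p under 0.05. DESeq2 called 158 genes there, Pdia4 among them (adjusted p = 0.034). These sums mix regions that took different shares of each area.

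**Figure D2:**
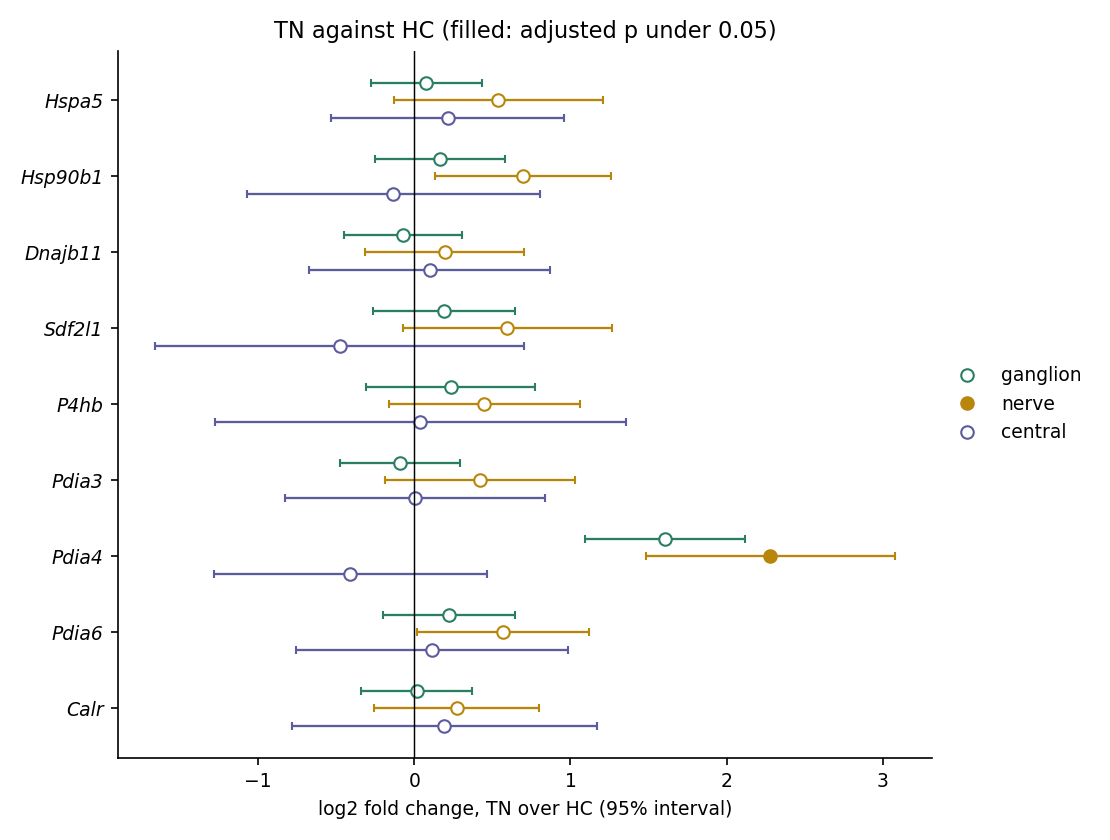
Log2 fold change of TN over HC for each member in ganglion, nerve and central spots, with 95% intervals from edgeR (3 TN areas against 1 HC area, filled where the adjusted p was under 0.05). Pdia4 stands at 1.61 in ganglion and 2.28 in nerve spots, outside the range of the other members, and at -0.41 in central spots.

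Whether the TN contrast differed between regions was tested as an interaction in the 12 sums. For Pdia4 it was larger in ganglion than in central spots by 2.09 on the log2 scale (SE 0.37, 95% interval 1.25 to 2.92), with an adjusted p of 0.71 by edgeR and an unadjusted one under 0.05. It was smaller in ganglion than in nerve spots by 0.71 on the log2 scale, with an interval of the difference from -1.71 to 0.29. The other 8 members had interaction terms between -0.56 and 0.77, all with intervals that held 0. No member and no gene of 12460 passed in either interaction (0% in both), where 870 genes had an unadjusted p under 0.05 against central and 588 against nerve spots. DESeq2 called 2 and 1. Without TN3, Pdia4 (2.32, adjusted p = 0.0034) and Sdf2l1 (1.19, adjusted p = 0.038) passed against central spots.

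Between regions of the same areas, the members were lower in ganglion than in nerve spots. All 9 had negative log2 fold changes, and 5 passed. Over all 11779 genes 33.3% passed, 16.2% as lower in the ganglion, so that many genes separated these regions. Areas entered this fit as a block, so that each region was set against the others of the same area. Pdia6 stood at 161, 195, 179 and 157 CPM in the ganglion of TN1, TN2, TN3 and HC and at 333, 317, 290 and 214 CPM in nerve spots. Each area had more of it in the nerve, and the log2 fold change was -0.73 (SE 0.15, adjusted p = 0.0074 by edgeR). P4hb stood at 178, 248, 232 and 192 CPM in the ganglion and at 324, 402, 412 and 282 CPM in the nerve, -0.74 (SE 0.17, adjusted p = 0.010). Again all 4 areas went the same way.

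Calr was at 469 ± 17.9 CPM in ganglion and 653 ± 56.4 CPM in nerve spots (SD, n = 4), a log2 fold change of -0.47 with an adjusted p of 0.0296 by edgeR. Hsp90b1 was at 275 ± 25.2 and 415 ± 91.2 CPM, -0.59 with an adjusted p of 0.032. Sdf2l1 was at 21.8 ± 1.32 and 35.8 ± 8.04 CPM, -0.71 with an adjusted p of 0.048. The narrowest gaps between the regions were those of HC. In HC, Hsp90b1 stood at 257 CPM in ganglion and 286 CPM in nerve spots, against 254 and 485 CPM in TN1. HC nerve spots were also those with the sensory neuron signal. Pdia3, Dnajb11, Pdia4 and Hspa5 did not pass, with log2 fold changes of -0.33, -0.23, -0.54 and -0.095. For Pdia4 the interval was wide, -1.45 to 0.38. HC had 9.72 CPM in ganglion and 8.98 CPM in nerve spots while the TN areas had between 26.4 and 31.2 CPM and between 36.5 and 47.2 CPM. The calls are not firm. Without TN1 2 members passed, without TN2 or TN3 1, without HC 6, without the filter on low counts 2, and with nerve spots of a sensory neuron score of 0 or higher 2.

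Against central spots, 8 of 9 members had a negative log2 fold change in the ganglion, and Sdf2l1 was the only one that passed. It stood at 21.5, 23.3, 22.4 and 20.2 CPM in ganglion spots and at 36.0, 41.4, 69.9 and 73.4 CPM in central spots, higher in the latter in all 4 areas and more so in TN3 and HC. The log2 fold change was -1.31 (SE 0.24, adjusted p = 0.0019 by edgeR). It passed in every alternative run for this comparison, from -1.57 without TN1 to -1.09 without HC. Over all genes 38.4% passed, 19.8% as higher and 18.6% as lower in the ganglion, so 1 member of 9 lower was below that share. Pdia4 had 9.72 CPM in HC ganglion and 55.7 CPM in HC central spots, whereas the TN areas lay between 26.4 and 31.2 CPM and between 31.8 and 48.4 CPM. Its log2 fold change was -1.02 (95% interval -1.93 to -0.11, adjusted p = 0.0715 by edgeR), and -0.43 without HC. It passed by DESeq2 (adjusted p = 0.033) and by edgeR with no filter on low counts (adjusted p = 0.043). Hsp90b1 was lower in the ganglion in 4 of 4 areas (log2 fold change -0.42, 95% interval -0.82 to -0.018, adjusted p = 0.0901 by edgeR). With the spot sets that were added after the data had been seen, it passed by edgeR with an adjusted p of 0.021 for nerve spots of a score of 0 or higher and of 0.012 for central spots led by glial lists. Pdia4 passed with both of these sets too, and Dnajb11, at -0.18 in the fit reported here, with the glial-led one. Hspa5, also at -0.18 and lower in all 4 areas, did not pass in any of these. Pdia3, P4hb, Pdia6 and Calr lay between -0.11 and 0.0095.

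From central to nerve spots, P4hb and Pdia6 rose and no member passed as lower. P4hb had a log2 fold change of 0.64 (SE 0.17, adjusted p = 0.0195 by edgeR), higher in the nerve in all 4 areas. For Pdia6 it was 0.62 (SE 0.16, adjusted p = 0.014 by edgeR), also in all 4. Calr was higher in the nerve in all 4 areas too but did not pass (0.37, adjusted p = 0.086 by edgeR). Over all genes 24.8% passed, 13.0% as higher in the nerve. Neither call held without TN1 or without TN2, and P4hb alone held without TN3. Sdf2l1 was lower in the nerve in 3 of 4 areas, with a log2 fold change of -0.60 (95% interval -1.14 to -0.060, adjusted p = 0.10 by edgeR). With central spots led by glial lists it passed as lower, at -0.76 (adjusted p = 0.0185 by edgeR).

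**Figure D3:**
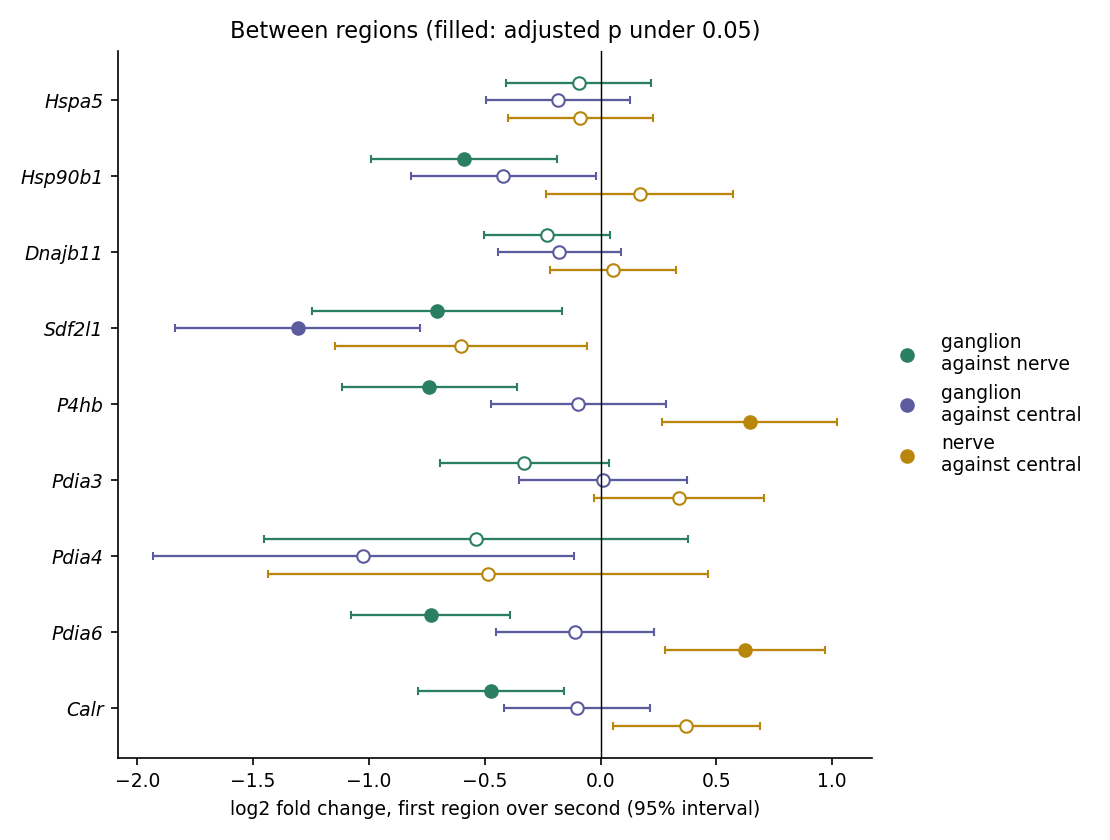
Log2 fold change between regions for each member, with area as a block, 95% intervals from edgeR and filled points where the adjusted p was under 0.05 (12 sums of 3 regions and 4 areas). The 5 filled points of ganglion against nerve spots lie between -0.74 and -0.47, and P4hb and Pdia6 are filled at 0.64 and 0.62 for nerve against central spots.

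Beyond these 3 regions, connective tissue spots were rich in the members, although its mean covers TN areas only and is not over the same areas as the others. Over the 21 sums of 6 regions that had 20 or more spots in an area, now in plain CPM, 8 of 9 members had their highest regional mean there. The exception was Sdf2l1, highest in central (52.6) and lowest in ganglion spots (23.1). Connective tissue spots lay almost all in TN2 and TN3, with 346 and 413 spots, against 31 in TN1 and 1 in HC, so that no HC value could be given. Within the TN areas the order was not uniform. Hsp90b1 stood at 353, 431 and 487 plain CPM in connective tissue of TN1, TN2 and TN3 and at 451, 445 and 469 plain CPM in the nerve, and Pdia6 was also higher in the nerve in TN1 and TN2. P4hb, the collagen hydroxylase subunit, stood at 326, 470 and 470 plain CPM in connective tissue of TN1, TN2 and TN3 and was lowest, at 143, in central spots of TN1. Hspa5 moved least over the sums, 1.64 times from the lowest to the highest, and Pdia4 most, 6.33 times.

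Pdia4 was low in HC in each region there that had an HC value, except the central one. It stood at 18.1 plain CPM in HC blood and bone spots (52 UMIs) against 49.2 and 37.9 in TN1 and TN3, from only 15 and 12 UMIs. In pituitary spots it stood at 16.4 in HC (12 UMIs) against 45.9 in TN2 and 35.8 in TN3, the last from 7 UMIs. In HC central spots it reached 49.2 plain CPM, from 241 UMIs, close to TN3 at 49.5 plain CPM. A single area held both the lowest levels of Pdia4 and one of the highest.

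**Figure D4:**
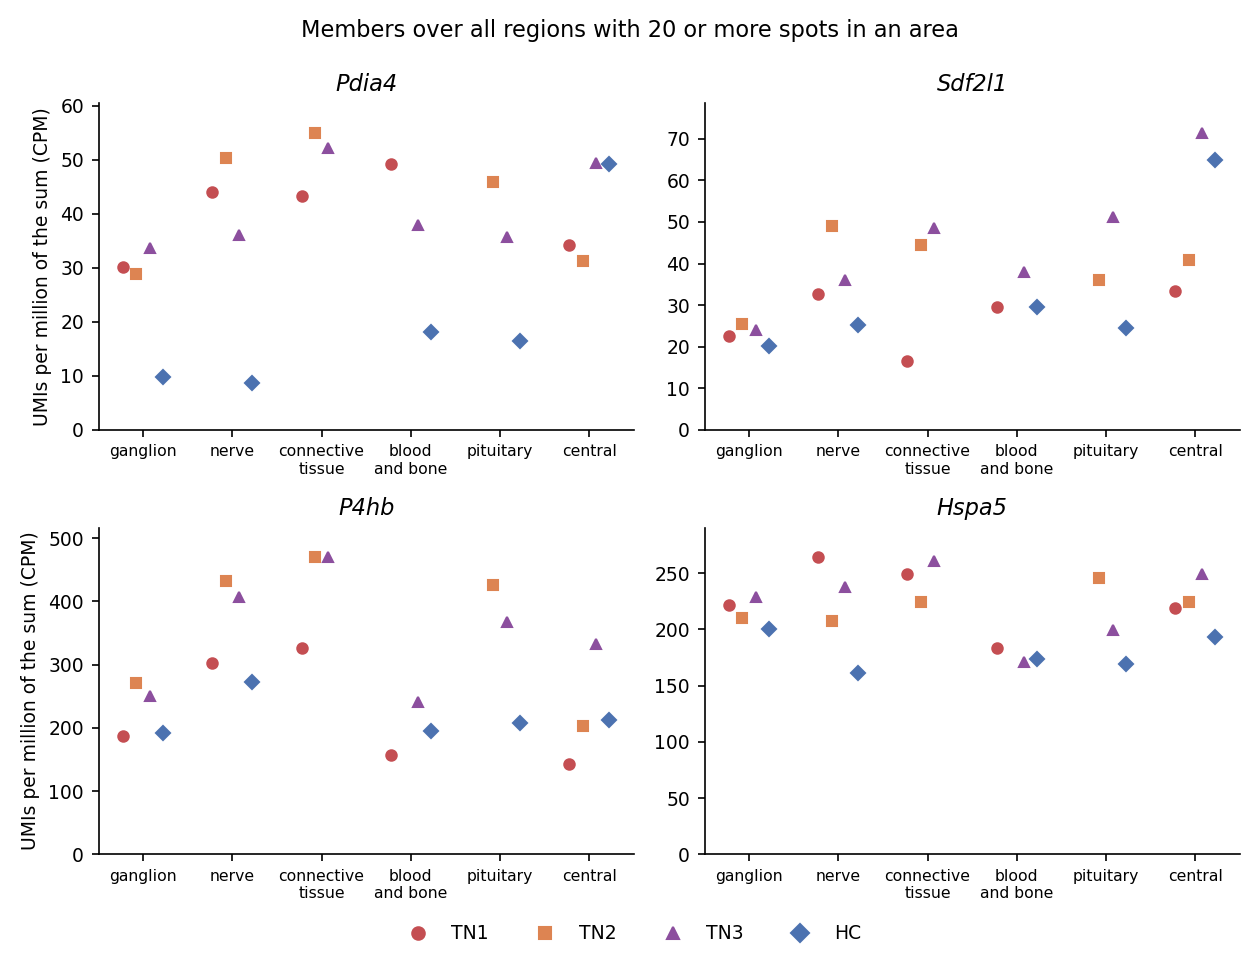
Level in plain CPM of Pdia4, Sdf2l1, P4hb and Hspa5 in 6 regions, 1 point for each area with 20 or more spots of the region (21 sums). HC lies below the TN areas for Pdia4 in ganglion, nerve, blood and bone, and pituitary spots (8.69 to 18.1 plain CPM) and at 49.2 in central spots, while Hspa5 stays between 162 and 264 plain CPM in all sums.

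Most members varied together over these sums. Pearson's r between a member's log2 level and the mean of the other 8 was 0.91 for Hsp90b1, 0.90 for Pdia6, 0.89 for P4hb, 0.85 for Calr, 0.76 for Pdia3, 0.73 for Dnajb11 and 0.63 for Hspa5, and it was lowest for Pdia4 (0.56) and Sdf2l1 (0.39). The closest pair was P4hb and Pdia6 (0.92), and the most distant Sdf2l1 and Pdia3 (0.14). These are descriptions over 21 sums that share areas, depth and tissue, so no p is given. By the same measure, among 5943 genes with a mean of 20 plain CPM or more, the genes most like the mean of the members included H2afv (0.96), Gpx8, Sec61b, Rpl31, Rpl13, Rpl10, Pttg1ip, Tmed10 and H3f3a (0.93). Gpx8 is an ER peroxidase, Sec61b a subunit of the translocon through which proteins enter the ER, and Tmed10 a cargo receptor between ER and Golgi.

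Genes that work beside the members were counted in lists. For TN against HC, the median log2 fold change over all genes was 0.03 in ganglion and 0.04 in nerve spots. How many of all genes were higher or lower in TN was not counted. All signs in this contrast rest on the same HC area, whose tissue make-up differed, so a uniform sign says little about a list. Collagen folding genes (12 tested, such as Serpinh1, the collagen chaperone, and the lysyl hydroxylase Plod3) were higher in TN in 12 of 12 in nerve spots, with a median log2 fold change of 0.61, from 0.14 in Plod2 to 1.02 in Serpinh1, and in 12 of 12 in ganglion spots with a median of 0.31. None of them passed in either region. KDEL receptors, which return escaped chaperones to the ER, were higher in 3 of 3 in nerve spots (median 0.61, Kdelr2 at 0.997) and in ganglion spots (median 0.20), and none passed. Of the translocon list 17 of 17 were higher in TN nerve spots (median 0.38, up to 0.95 in Tram1), and none passed.

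The PDI family list, which holds isomerases and related genes, had a median of 0.72 over 10 genes in TN nerve spots, from -0.95 in Creld1 to 1.21 in Erp44. In the ganglion it had a median of 0.50 over 11 genes, from -0.28 in Creld1 to 1.14 in Tmx3. None passed the threshold in either region. In the unfolded protein response list the median was 0.01 over 14 genes in nerve spots, from -1.82 in Chac1 to 2.63 in Mbtps1, and 0.16 over 15 genes in the ganglion, with 0 passing in either. Calnexin cycle genes had medians of -0.08 in ganglion and 0.04 in nerve spots, partners of BiP -0.05 and 0.24, and ER-associated degradation -0.05 and 0.10, again with none past the threshold. Chaperones of the cytosol went the other way in nerve spots, where 11 of 12 were lower in TN (median -0.33) and Hsph1, a co-chaperone of Hsp70, fell (-1.07, adjusted p = 0.035 by edgeR), while in the ganglion 6 of 12 were higher and none passed. Mitochondrial chaperones had medians of -0.11 in ganglion and -0.20 in nerve spots, over 5 genes, and none passed. In central spots no gene of any list passed, and list medians lay between -0.18 and 0.59.

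Between regions some lists went the same way as the members, and others against them or both ways. Over all genes 33.3% passed for ganglion against nerve spots, 17.1% as higher and 16.2% as lower in the ganglion. For ganglion against central spots 38.4% passed, and for nerve against central spots 24.8%. A count near these shares says little about a list. Collagen folding genes were lower in ganglion than in nerve spots in 10 of 12 (Serpinh1, P4ha1, Plod1, Plod3, P3h1, Fkbp10, Fkbp7, Fkbp9, Fkbp14 and Ppib) and higher in 1, Plod2, with a median of -0.91. All 3 KDEL receptors were lower, from -1.62 in Kdelr3 to -0.50 in Kdelr1, and so were 8 of 17 translocon genes, Tram1 (-1.14) and Sec61b (-0.78) among them. Between nerve and central spots, 8 of 12 collagen folding genes were higher in the nerve, with Serpinh1 at 1.80, and so were Kdelr3 (2.42) and Kdelr2 (0.88). The cytosolic list ran against the members, since 12 of 12 were higher in ganglion than in nerve spots and 7 passed, Hsp90ab1 (0.58), Hspa8 (1.11), Hspa4, Dnaja1, Hspb1, Bag3 (1.28) and Cct5. Against central spots 12 of 12 were higher in the ganglion as well, and 10 passed. Within the unfolded protein response list, Ddit3, Asns and Creb3 were higher in ganglion than in nerve spots and Mbtps1 and Creb3l2 lower. Against central spots Atf4, Trib3, Ppp1r15a, Asns and Creb3 were higher and Creb3l2 lower. This list went both ways and is to be read against the shares over all genes given above.

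Within the TN ganglion, no chaperone passed between spots with much and little of the nerve injury signal. The ganglion spots of each area were ranked by 12 injury genes (such as Atf3, Sprr1a and Gal) and split into 3 parts of equal size, and the upper part was set against the lower, with area as a block. The list itself went from 653 to 2693 plain CPM in TN1, from 1446 to 5494 in TN2 and from 870 to 2540 in TN3, which only restates the ranking, and in HC from 381 to 890. Of 9829 genes tested 8.86% passed, 4.84% as higher and 4.02% as lower in the upper part, and of the 9 members 0. Hspa5 came nearest, with 234 and 199 plain CPM in the low and high spots of TN1, 232 and 171 in TN2 and 232 and 223 in TN3. It was lower in the injury-high spots of all 3 areas, by a log2 fold change of -0.22 (95% interval -0.39 to -0.043, adjusted p = 0.13 by edgeR). In HC it went from 193 to 203.

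Pdia4 stood at 27.2 and 31.4 plain CPM in TN1, 25.5 and 26.6 in TN2 and 39.4 and 29.5 in TN3, and at 8.94 and 9.20 in HC. Neither part of HC came near a part of TN. The other 7 members had log2 fold changes between -0.06 (Dnajb11) and 0.12 (P4hb), all with intervals that held 0. Of the related genes, Hspb1, a small heat shock protein of the cytosol, rose (1.204), Hsph1 (-0.38) and Ddit3 (-0.38) fell, and Os9 (0.28), Plod3 (0.41) and Sec61a1 (0.31) rose, all by edgeR. Injury-high spots differed in make-up as well, since C1qa, C1qb, C1qc and Cd68 of the macrophage list rose, 4 of 7 tested, with sums of 371, 609 and 455 plain CPM against 246, 409 and 393. Of the sensory neuron list Prph rose and Avil, Isl1 and Scn10a fell. The sum of this list did not fall throughout. From the lower to the upper part it went from 12486 to 14991 plain CPM in TN1. In TN3 it went from 11795 to 14060 plain CPM, but in TN2 from 16402 to 13914. The part of these signals in the members' values was not tested.

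**Figure D5:**
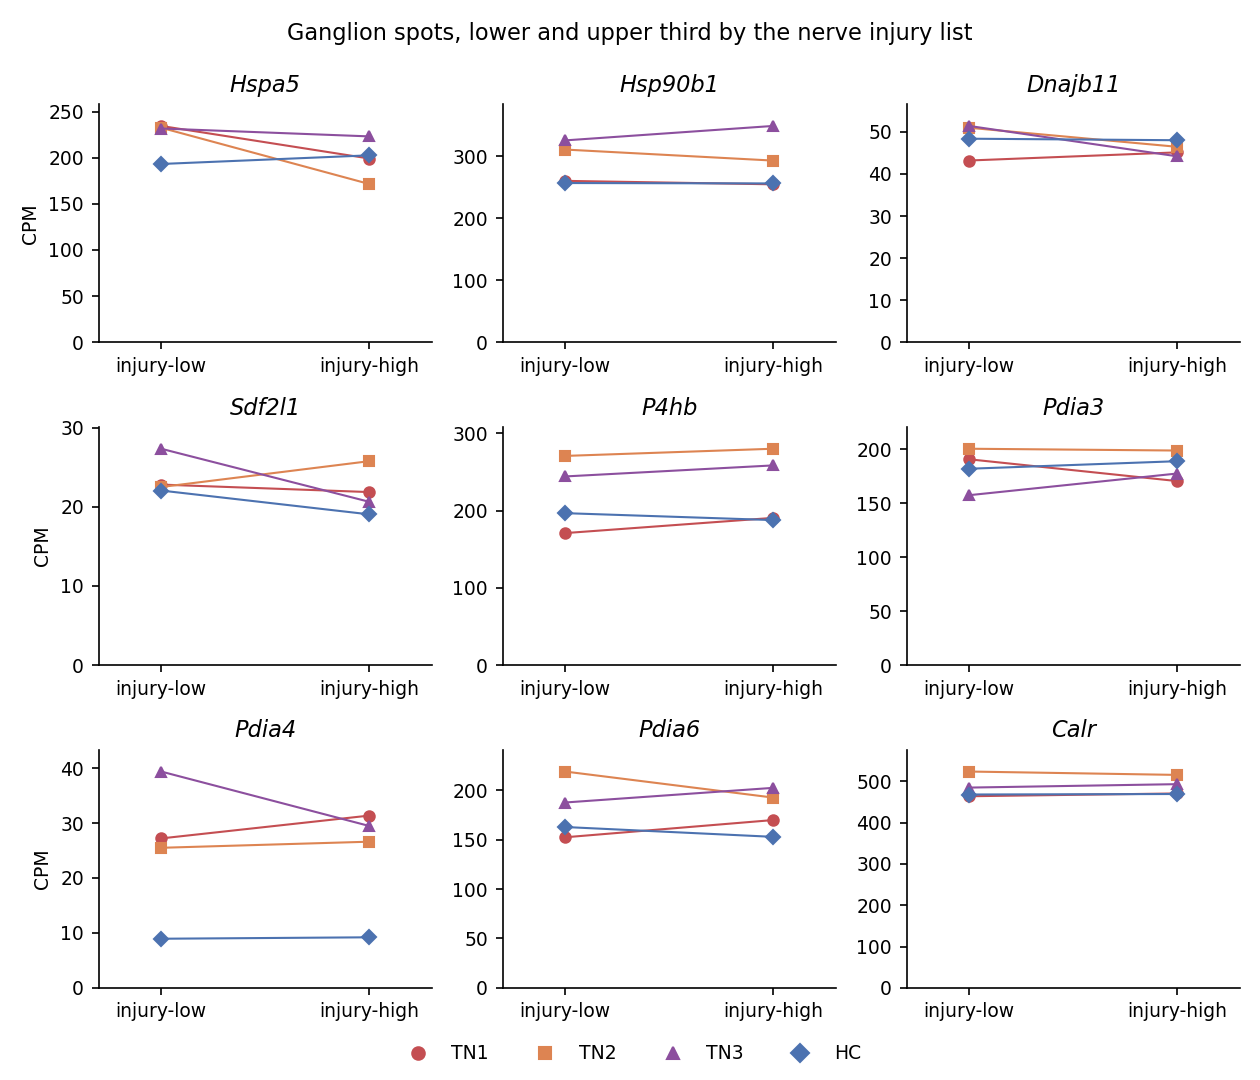
Level in plain CPM of each member in the lower and upper of 3 equal parts of the ganglion spots of each area, ranked by 12 nerve injury genes, with lines joining the parts of 1 area. Hspa5 is lower in the upper part of the 3 TN areas (log2 fold change -0.22), and Pdia4 in HC (8.94 and 9.20 plain CPM) stays below every TN part.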

How the data were processed

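Sections of 4 capture areas (TN1, TN2, TN3 and HC) were profiled with Visium. The authors aligned and counted the reads with Space Ranger (1.2.0 by the header of the deposited count matrix). They deposited raw UMI counts of 32623 genes on 6773 spots. The genome build of these counts is not given in the sources used here. Areas held 23546025 to 41335930 UMIs, so that low genes rest on few molecules, and intervals of shares cover counting error only. All spots were kept (86 had under 500 genes or 1000 UMIs). Spots were assigned to regions by the mean z-score of 8 marker lists with a margin of 0.25; of the spots, 224 of 1540 led by the ganglion list, 266 of 1225 led by the nerve list and 100 of 2054 led by the central lists lay within 0.1 of it. UMIs were summed per region and area and tested with edgeR 4.0.16 in R 4.3.3 (TMM scaling, filterByExpr, quasi-likelihood test, Benjamini-Hochberg over all genes tested, threshold 0.05). Region, interaction and injury fits took the area as a block, because regions of 1 area come from the same tissue. Injury fits left out the injury genes. The scripts were tested on simulated data. The members and all lists were chosen with earlier results of these data known. All 9 members were named in each comparison, and of each list the genes that passed or else the lowest and the highest. Of 217 list genes 208 were found. In all 16 alternatives were tried, among them DESeq2 1.42.0, other scaling, no filter, other margins, K-means clusters (Seurat 5.3.0) and leaving out each area. Nerve spots split by sensory neuron score and central spots led by glial lists were added after seeing the data. Promoters came from RefSeq (GRCr8). Some genes of the lists are not reported here.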

Additional observations from a re-analysis of the deposited data

Results flagged for a closer look

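The TN contrast of Pdia4 differed between ganglion and central spots by 2.09 on the log2 scale (SE 0.37, 95% interval 1.25 to 2.92). It drew attention because the difference itself was tested, as an interaction term, and had an unadjusted p of 0.00035. After adjustment over 12460 genes it did not pass (adjusted p = 0.71 by edgeR), and over all alternatives it ranged from 1.77 to 2.32 and its adjusted p from 0.0034, without TN3, to 1. Pdia4 was above HC in 3 of 3 TN areas in ganglion spots and below HC in 3 of 3 in central spots. The central neuron signal of TN1 and TN2 and the single HC area move with this difference, and their part in it was not tested.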

How the results depend on the processing

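With 1 HC area, and TN areas of 1 animal each, neither depth nor more spots can separate condition from area, and a rise well under the width of the intervals above would not have been detectable. Pdia4 stayed above HC in ganglion, nerve and all spots under every alternative run, and Sdf2l1 was lower in ganglion than in central spots and passed under every one run for that comparison. No paired analysis was possible for TN against HC, because HC is 1 area of 2 animals that the labels do not match to TN animals. If HC is the healthy side of TN animals, the groups may share animals. The fits of TN against HC treat the areas as independent. In nerve spots K-means left 12 spots of TN2 and 17 of HC, and a margin of 0.5 left 18 of TN2. Nerve spots with a sensory neuron score below 0 left 9 of HC. All of these fell under the minimum of 20 spots. Nerve, region and interaction comparisons were therefore not fitted under these settings, and Sdf2l1 between ganglion and central spots was not checked under them. Nerve spots with a score of 0 or higher, 18 of them in TN2, were fitted because their minimum was set to 15. The cause of each change below was not tested.

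Counts of members that passed changed as follows. In TN against HC, DESeq2 called 1 member in ganglion spots and 1 in all spots, and no filter on low counts 1 in ganglion spots. Nerve spots with a sensory neuron score of 0 or higher gave 0. Leaving out 1 area gave 0 to 1 in ganglion and in all spots and 0 to 2 in nerve spots. For ganglion against nerve spots, 2 passed with no filter, 2 with nerve spots of a score of 0 or higher and 1 to 6 with 1 area left out. For ganglion against central spots, 2 passed by DESeq2, 2 with no filter, 3 with nerve spots of a score of 0 or higher and 4 with central spots led by glial lists. For nerve against central spots, 1 passed without the replicate block, 0 with nerve spots of a score of 0 or higher and 0 to 2 with 1 area left out, and central spots led by glial lists added Sdf2l1 as lower. In the interaction with central spots 0 to 2 passed with 1 area left out.

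Counts over all genes moved more. Ganglion spots gave 165 genes by DESeq2, 39 with no filter, 6 with a margin of 0.5, 0 with K-means clusters and 2 to 350 with 1 area left out. Nerve spots gave 1029 with no filter, 14 with a score of 0 or higher and 0 to 2235 with 1 area left out, the extremes being without TN3 and without TN1. Central spots gave 1 by DESeq2 and 0 to 21, and all spots 158 by DESeq2 and 0 to 2171. Ganglion against nerve spots gave 2351 without the replicate block, 922 with a score of 0 or higher and 1463 to 4282 with 1 area left out, ganglion against central spots 2926 to 4038, and nerve against central spots 1921 without the block and 1552 to 2636. The interactions gave 1 (nerve) and 2 (central) by DESeq2, and for central 1 with no filter and 0 to 547 with 1 area left out. The injury parts of the ganglion gave 265 by DESeq2, 0 without the replicate block and 195 to 694 with 1 area left out. Without the block, Sdf2l1 was lost between ganglion and nerve spots (-0.73, adjusted p = 0.058 by edgeR) and P4hb between nerve and central spots (0.57, adjusted p = 0.14 by edgeR), and no other member changed its call.

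Log2 fold changes that changed sign were all small or unpassed. In TN ganglion spots Dnajb11 became 0.0097 with K-means clusters, and Calr -0.022 with a margin of 0.5 and -0.024 to 0.047 with 1 area left out. In TN central spots P4hb became -0.040 with DESeq2 size factors, -0.040 by DESeq2, -0.019 with no filter, -0.066 with a margin of 0.5 and -0.37 to 0.27 with 1 area left out, and Pdia3 -0.074, -0.074, -0.050, -0.055, -0.025 with K-means clusters and -0.19 to 0.10. With 1 area left out, Dnajb11 ranged there from -0.075 to 0.14, Pdia6 from -0.078 to 0.24 and Calr from -0.045 to 0.27. For ganglion against central spots Pdia3 became -0.033 with DESeq2 size factors, -0.032 by DESeq2, -0.054 without the replicate block, -0.085 with a score of 0 or higher, -0.18 with glial-led central spots and -0.14 to 0.10 with 1 area left out, and P4hb -0.28 to 0.0019. For nerve against central spots, Hsp90b1 became -0.085 and Dnajb11 -0.13 with a score of 0 or higher, Dnajb11 -0.020 with glial-led central spots, and with 1 area left out Hsp90b1 ranged from -0.025 to 0.40, Dnajb11 from -0.038 to 0.096, Hspa5 from -0.23 to 0.0063 and Pdia4 from -0.88 to 0.16. In the interaction with central spots, leaving out mitochondrial, ribosomal protein and hemoglobin genes gave Hspa5 0.015 and Pdia3 0.052, a score of 0 or higher gave Pdia3 0.010, and with 1 area left out Hspa5 ranged from -0.087 to 0.046, Pdia3 from -0.16 to 0.28, Dnajb11 from -0.24 to 0.14 and Calr from -0.26 to 0.19. Between the injury parts of the ganglion Hsp90b1 became -0.00066 with a margin of 0.5, -0.0065 with K-means clusters and -0.018 to 0.048 with 1 area left out, Dnajb11 0.042 with no margin, 0.025 with K-means clusters and -0.15 to 0.0068, Pdia3 -0.039 with a margin of 0.5, -0.023 with a split into 2 parts and -0.049 to 0.099, and Pdia4 8.9e-05 with low spots left out, 0.055 with no margin, 0.021 with a split into 2 parts and -0.17 to 0.18. With 1 area left out Sdf2l1 ranged there from -0.20 to 0.10 and Pdia6 from -0.019 to 0.15.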
